A study of Mus musculus with 19 samples.

Results

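The genes described here are the physical neighbours of *Upf2* on mouse chromosome 2. They are the genes of the deposited count table that lie wholly within 5 Mb on either side of *Upf2* (GRCm38, chromosome 2, 951469 to 11056703; *Upf2* itself at 5951469 to 6056703 on the plus strand) and that reach at least 10 counts in at least 1 embryo, with *Upf2* and 2 further genes left out. The GENCODE annotation places 236 genes in this window, 208 of them have a row in the count table, 164 of those stay under the filter, and 41 of the remaining 44 are the members, out of 17137 genes tested. The position of a gene chose the members, and no measured difference did. The filter did use the counts: 4 members reach 10 counts only in *Upf2*-null embryos and 4 only in control embryos, so a difference in those 8 is partly built in.

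The study compared single early blastocysts (E3.25, collected 90 to 94 h after human chorionic gonadotropin) that lack *Upf2* with littermate controls. The *Upf2*-null group holds 8 *Upf2* -/- embryos and the control group 11 *Upf2*+/+ embryos. Both came from superovulated females 4 to 8 weeks of age, mated within a global heterozygous intercross, and were cultured from the zygote in M16 medium. The null allele was made by crossing a floxed *Upf2* line, described in the C57BL/6 background, to mice carrying Cre recombinase under the E2a promoter; the cross removes exons 2 and 3 and leaves a truncated protein without activity in decay. RNA of each whole embryo was amplified as cDNA and sequenced, and the genotype was read by PCR from that cDNA.

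UPF2 is a core factor of nonsense-mediated mRNA decay (NMD), a pathway that degrades mRNAs in which translation stops well upstream of an exon junction, and that also lowers many ordinary transcripts. A gene next to a targeted locus is mostly inherited together with it, unless recombination separates them. In an intercross, embryos homozygous for the null allele are therefore mostly also homozygous for the surrounding stretch of the chromosome that carried it, and controls for the stretch that carried the intact allele. A neighbour can differ between genotypes through sequence carried along with the allele, through the altered locus itself, or through loss of decay, and expression values alone cannot tell these apart. The comparison of null with control embryos at these genes was made so that position could be read beside the difference.

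The libraries held 4056072 to 5993745 counts each, and 14522 to 17084 genes had at least 1 count. Trophectoderm markers (7 of 7), epiblast markers (7 of 7) and primitive endoderm markers (5 of 6) passed the filter, and none of the 6 cumulus and granulosa cell markers did, at a summed level of 0 CPM (counts scaled to a common library size, after TMM normalisation) in every embryo. By edgeR, 3 epiblast markers (Nanog, Fgf4 and Klf2) lay lower in null embryos at an unadjusted p under 0.05, against 7.38% of all genes tested. At an adjusted p under 0.1, 0 did, against 0.0175%. Log2 fold changes were below 0 in 5 of the 7 and above 0 in 2 (Sox2, 0.09, and Esrrb, 0.48). The paper, using DESeq2, counted Nanog and Fgf4 among its significantly lower genes. The summed level of the 7 epiblast markers was 368 to 464 CPM in null and 430 to 825 CPM in control embryos. That of 5 oocyte markers was 0.531 to 32.4 and 3.93 to 72.6 CPM. The part of either in the results below was not tested. Control embryos 5, 2 and 4 and *Upf2*-null embryo 2 lay farthest from the others, with median correlations of 0.864, 0.876, 0.879 and 0.886 with the other 18 embryos, against 0.897 to 0.923 in the remaining 15. Results that rest on them are given with and without them. *Upf2*, counted over all its exons, had 90.9 ± 21.3 CPM (SD, n = 8) in null and 57.8 ± 16.5 CPM (SD, n = 11) in control embryos (log2 fold change 0.66, edgeR adjusted p = 0.185), so its total count does not check the genotype. The transcript models that the authors assembled over all embryos do hold 3 unannotated *Upf2* transcripts in which exon 1 is joined to exon 4. Since each library is a whole embryo, fewer cells of a type and less RNA per cell cannot be told apart in any value below.

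Some linked genes are retrocopies, reverse-transcribed copies of an mRNA, whose reads can be assigned to the copy only where it differs from its parent. The first pair of lines is the 60-base stretch of the coding sequence of *Traip*, a ubiquitin ligase gene on chromosome 9, in which the linked copy *Gm13384* differs most, with the 8 differing bases in capitals. The other pair is the 60-base stretch of *Rps28*, a ribosomal protein gene on chromosome 17, around the single base at which the linked copy *Gm13192* differs. All 4 are written 5′ to 3′ from the GENCODE transcripts.
Gm13384: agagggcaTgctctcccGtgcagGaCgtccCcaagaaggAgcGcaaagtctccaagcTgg
Traip: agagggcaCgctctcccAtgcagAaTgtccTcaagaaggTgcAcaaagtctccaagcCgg
Gm13192: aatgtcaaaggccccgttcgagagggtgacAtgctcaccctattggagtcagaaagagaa
Rps28: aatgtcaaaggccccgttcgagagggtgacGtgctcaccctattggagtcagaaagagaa

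*Gm13384* and *Traip* matched at 90.4% of 1411 aligned positions, with 67 mismatches and 68 gap positions, and the longest run without a difference was 91 bases. *Gm13192* matched *Rps28* at 99.5% of 208 positions, with 1 mismatch, and a further gene of another chromosome (*Gm10263*) at every position; 7 genes in all shared at least 95% of at least 100 bases with it. *Gm13193* lay closest to *Dbi* among coding genes, at 77.8% of 243 positions, and no gene reached 95%. *Gm13181* matched *Parl*, a mitochondrial protease gene, over 599 positions with 28 mismatches. Differences from the nearest coding relative were thus spread along *Gm13384* and *Gm13193* and nearly absent in *Gm13192*.

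The other sequence shown is the promoter of *Gm13261*, the called gene farthest from *Upf2*, because its annotated and assembled starts differ. RefSeq starts this transcript at position 10365161 of chromosome 2 on the minus strand, and the 300 bases around that start (250 before and 50 after, GRCm38.p6, chr2:10365112-10365411, minus strand) are shown with every CCAAT box, on either strand, in capitals; a box on the other strand reads as its reverse complement.
Gm13261: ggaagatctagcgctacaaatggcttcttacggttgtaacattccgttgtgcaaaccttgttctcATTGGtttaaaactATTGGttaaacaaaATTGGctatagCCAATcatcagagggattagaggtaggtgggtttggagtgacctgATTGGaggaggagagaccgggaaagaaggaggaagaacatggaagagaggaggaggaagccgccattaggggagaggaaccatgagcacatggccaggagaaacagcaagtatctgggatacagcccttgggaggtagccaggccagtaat
This window holds 5 CCAAT boxes and neither TATAAA nor GGGCGG on either strand. The CCAAT box occurs on either strand in 37.4% of the 32851 RefSeq promoters of this length, 5 or more times in 0.271%, TATAAA in 13.6% and GGGCGG in 35.7%. Of 46 promoters found for 32 of the 41 members, CCAAT occurs in 15, TATAAA in 2 and GGGCGG in 24. These matches are descriptions of letters and say nothing of which factor binds.

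Of the 41 linked genes, 2 were higher in *Upf2*-null blastocysts at an adjusted p under 0.1 and 0 were lower (edgeR's quasi-likelihood test, Benjamini-Hochberg over all 17137 genes). That is 4.88% of the members, against 0.193% of all genes tested in either direction, 0.175% higher and 0.0175% lower. Both are noncoding: *Gm13384*, a processed pseudogene 75.5 kb from *Upf2*, and *Gm13261*, a processed transcript 4283 kb away. DESeq2 called 3 members higher, the third being the pseudogene *Gm13193*, and 0 lower, against 1.2% of the 14696 genes to which it gave an adjusted p (0.694% higher, 0.504% lower); 8 members got none. Limma voom called the same 2 higher and 0 lower, against 0.665% (0.525% higher, 0.14% lower). At an unadjusted p under 0.05, 12 members differed by edgeR, 7 higher and 5 lower. Of the 12, 1 reached 10 counts only in null embryos and 3 only in control embryos, so their difference is partly built in. The 12 are 29.3% of the members, against 12.5% of all genes tested (5.15% higher and 7.38% lower). Without control embryos 2 and 4, 9 of 39 members had such a p (23.1% against 10%), and 1 was called. These 9 are not all among the 12. *Cdc123*, *Gm13192* and *Dhtkd1* no longer had such a p, and *Gm13191* and *Gm13267* did not pass the filter. *Gm13199* and *Gm13262* came in, and these, like *Cdnf* and *Ucma*, passed the filter through 1 group only. Without control embryo 5 it was 13 of 41 (31.7% against 13.1%), and without *Upf2*-null embryo 2, 12 of 41 (29.3% against 12%), with 1 called.

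**Figure D1:**
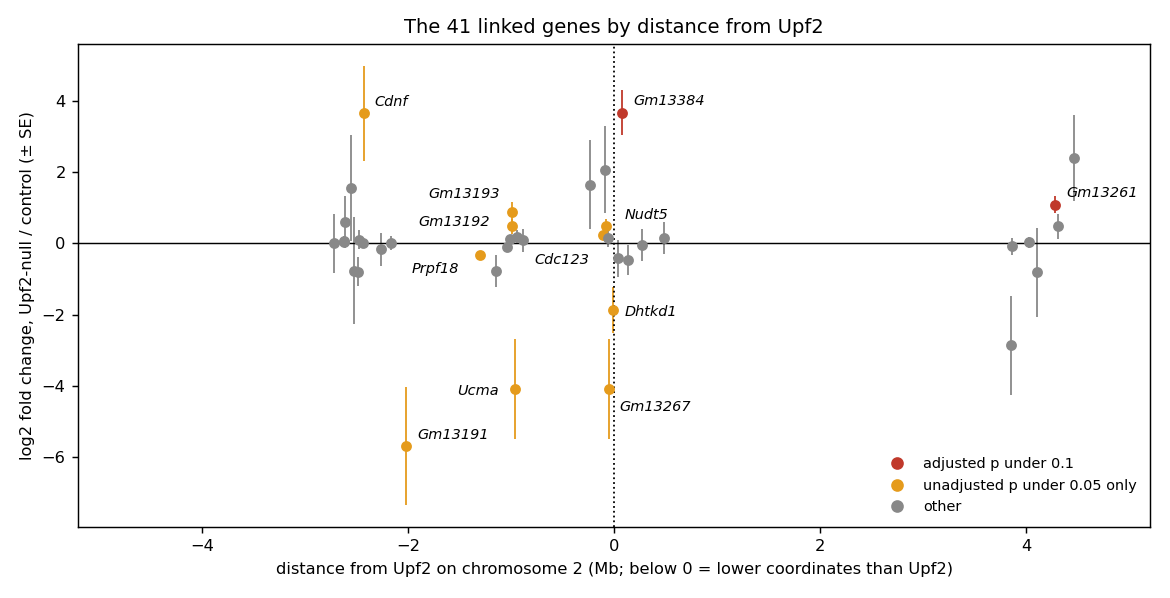
Log2 fold change of *Upf2*-null over control embryos with its standard error (y axis) for the 41 linked genes by distance from *Upf2* in Mb (x axis, below 0 at lower coordinates). Red points are the 2 genes past an adjusted p of 0.1, orange points those with an unadjusted p under 0.05 only, and the points lie on both sides of 0 with a median of 0.04.

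The members as a group did not shift to one side. Their median log2 fold change was 0.04, with quartiles of -0.41 and 0.48, beside a median of -0.02 and quartiles of -0.33 and 0.26 over all genes tested; 24 lay above 0 and 17 below. The median size of the change, without its sign, was 0.48 among members and 0.29 among all genes. Among genes averaging at least 1 CPM it was 0.21 for 32 members and 0.23 for 14032 genes, so the wider spread came with the least abundant members. In that more abundant set 9 of 32 members had an unadjusted p under 0.05, or 28.1%, against 8.32%, and the 2 calls stood against 0.235%.

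*Gm13384* (chromosome 2, 6132208 to 6133956, minus strand) showed the largest difference among the called members. Its lowest, median and highest levels were 2.83, 10.8 and 21.4 CPM in the 8 null embryos and 0, 0.573 and 2.52 CPM in the 11 controls. The lowest null embryo lay just above the highest control, so the groups did not overlap; among all genes 0.0934% had groups apart in this way. In counts, null embryos held 16 to 98 reads each and controls 0 to 14, with 456 and 50 in total. Null embryos averaged 11.6 ± 6.33 CPM (SD, n = 8) and controls 0.879 ± 0.865 CPM (SD, n = 11). The log2 fold change was 3.67 (SE 0.63, edgeR adjusted p = 0.023; DESeq2 1.28e-07, limma voom 0.00118). It was called in all 19 fits that each left out 1 embryo, with a log2 fold change of 3.49 to 3.96, and without control embryos 2 and 4 it was 3.49 (adjusted p = 0.0462).

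The parent gene differed by less than the spread between embryos. *Traip*, at 165 ± 38.8 CPM (SD, n = 8) in null and 149 ± 20.7 CPM (SD, n = 11) in control embryos, had a log2 fold change of 0.14 (SE 0.12, edgeR adjusted p = 0.762). *Proser2*, the coding gene nearest to *Gm13384* and transcribed on the same strand, ran from 2.99 to 121 CPM in null embryos (median 55.9) and from 7.56 to 133 CPM in controls (median 78.3), a log2 fold change of -0.41 (SE 0.52, adjusted p = 0.874). Over 950 processed pseudogenes tested, *Gm13384* was the only one called by edgeR, and 5.68% had an unadjusted p under 0.05. DESeq2 called 3 of them higher and 2 lower, and limma voom 2 higher and 0 lower.

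The strand of the *Gm13384* reads is not known. The spliced long noncoding gene *Gm10857* lies on the opposite strand, begins at 6132869, and has exons at the same positions as 1086 of the 1344 exonic bases of *Gm13384*, or 80.8%. *Gm10857* has no row in the count table, so it could not be tested as a gene of its own. The authors' assembled models, which pool all embryos, hold 2 unannotated multi-exon transcripts at *Gm10857*, starting at 6132593 and 6132615 on the plus strand, and none at *Gm13384*. For its isoform analysis the paper treated the reads as unstranded, and the strand setting of the gene counts is not given. A count at *Gm13384* can therefore come from either gene, and shared reads had no *Gm10857* row to go to.

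**Figure D2:**
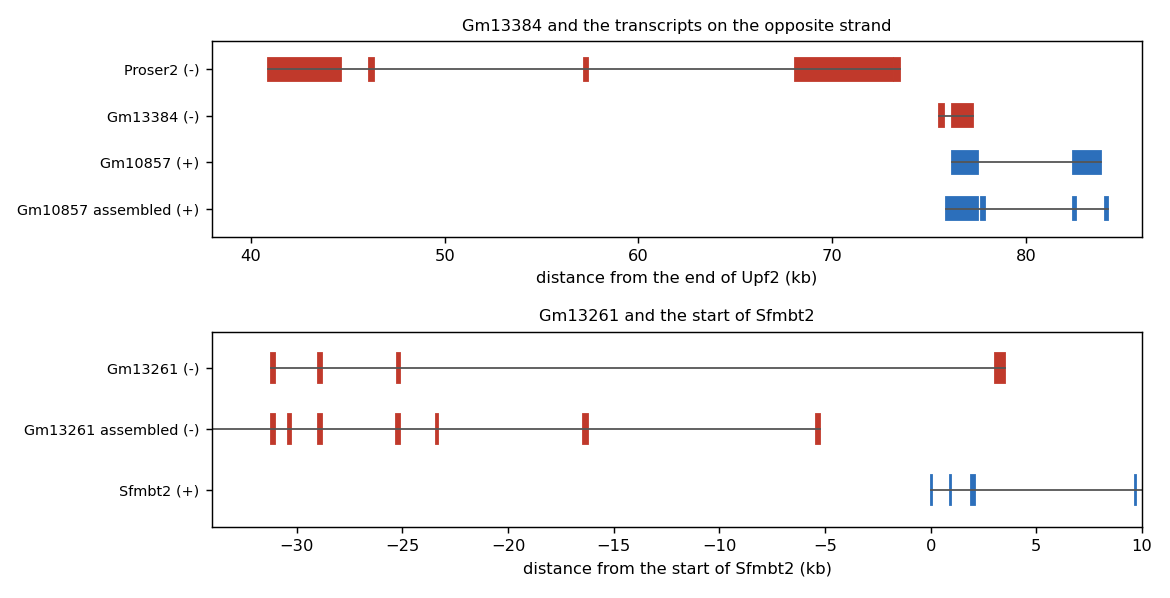
Annotated and assembled exons (boxes; blue, plus strand; red, minus strand) by distance in kb, for *Gm13384* and the opposite-strand gene *Gm10857* measured from the end of *Upf2* (upper) and for *Gm13261* and *Sfmbt2* measured from the start of *Sfmbt2* (lower). Most of *Gm13384* lies opposite the first exon of *Gm10857*, and the highest assembled *Gm13261* start lies 5.23 kb before *Sfmbt2*.

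*Gm13261* (chromosome 2, 10339283 to 10374041, minus strand) had 39.1, 64 and 74.9 CPM as its lowest, median and highest null embryos, and 15.3, 30.9 and 52.6 CPM in controls. Every one of the 8 null embryos lay above the control median, and 2 of 11 controls lay above the lowest null embryo. Null embryos averaged 61.9 ± 13.6 CPM (SD, n = 8) and controls 29.0 ± 11.4 CPM (SD, n = 11), and the log2 fold change was 1.09 (SE 0.23, edgeR adjusted p = 0.0734; DESeq2 0.000819, limma voom 0.00687). The call by edgeR held in 6 of the 19 fits that left out 1 embryo, in which the embryo left out was null 1 or 3 or control 2, 5, 6 or 10, and was lost in the other 13, with adjusted p from 0.0178 to 0.157 over all 19. Without control embryos 2 and 4 together the log2 fold change was 1.06 and the adjusted p was 0.134.

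*Gm13261* lies beside *Sfmbt2*, a Polycomb-type gene that is imprinted and expressed from the paternal allele in extraembryonic tissue. Its annotated start lies 3531 bases inside *Sfmbt2*, on the other strand. None of its 10 unannotated assembled transcripts began there: 7 began within 200 bases of the RefSeq start, whose promoter is printed above and which lies 8.88 kb from the annotated one. *Sfmbt2* itself had 15.3, 60.4 and 92.5 CPM as lowest, median and highest in null embryos and 19.7, 35 and 88.7 CPM in controls, fully overlapping. Its log2 fold change was 0.48 (SE 0.35, adjusted p = 0.682). *Mir669i*, a microRNA gene within *Sfmbt2*, had 12 reads in 1 null embryo and 2 in 1 control, a ratio per TMM-scaled library size of 8.14 with a 95% interval of 1.81 to 74.8 that covers counting error only. *Mir669i* passed the filter only through that null embryo, so a ratio above 1 is partly built in. *Kin* and *Taf3*, a DNA-binding protein gene and a subunit gene of the transcription factor TFIID, lie between *Upf2* and *Gm13261* and had log2 fold changes of 0.03 and -0.08 (adjusted p = 0.976 and 0.961).

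**Figure D3:**
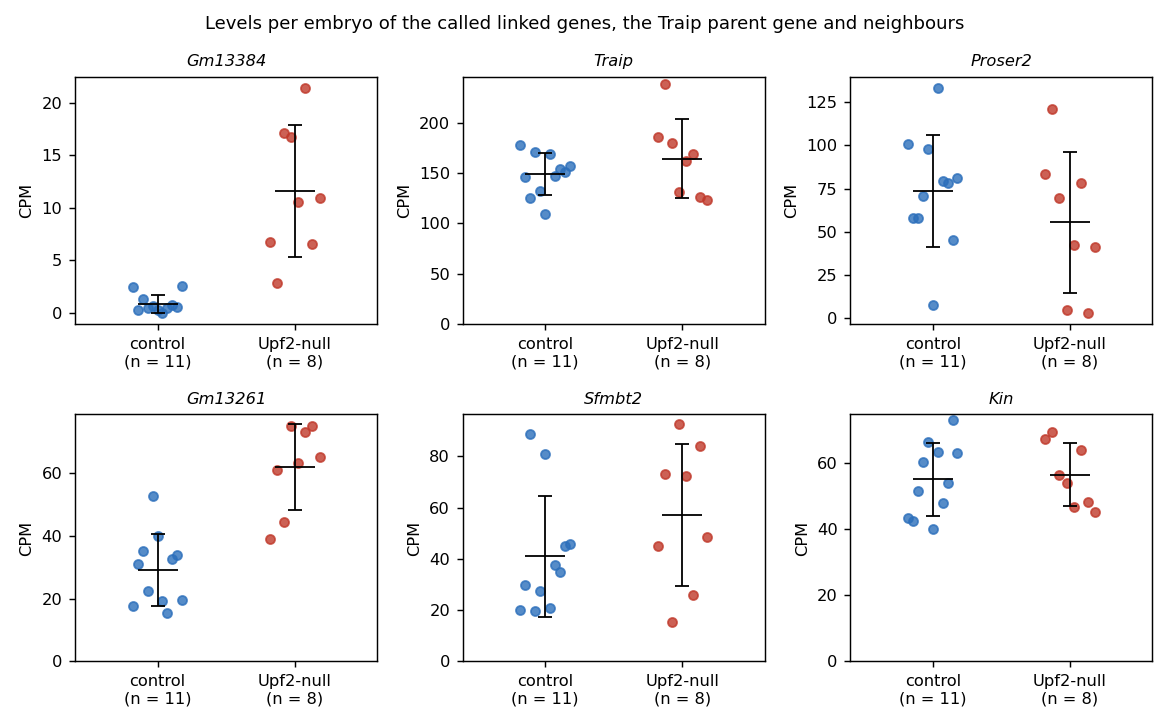
CPM per embryo (points), mean and SD (bars) in 11 control and 8 *Upf2*-null embryos for the called genes *Gm13384* and *Gm13261*, the parent gene *Traip* and the neighbours *Proser2*, *Sfmbt2* and *Kin*. The groups are apart only for *Gm13384*, where null embryos start at 2.83 CPM and controls end at 2.52 CPM.

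The share of genes with an unadjusted p under 0.05 was highest in the bin nearest to *Upf2*. Within 1 Mb it was 8 of 17 genes (47.1%), from 1 to 2.5 Mb 3 of 11 (27.3%), and from 2.5 to 5 Mb 1 of 13 (7.69%). Beyond the window it was 12.5% of 24 genes at 5 to 10 Mb, 13% of 323 at 10 to 50 Mb and 11.3% of 990 farther away, near the 12.5% of all genes. Over the 1337 tested genes of chromosome 2 outside the window, 1 was called, or 0.0748%. Among genes averaging at least 1 CPM the shares from the nearest bin outwards were 46.2%, 20%, 11.1%, 5.56%, 7.58% and 7.66%, against 8.32% for all such genes. The nearest bins hold few genes, and 2 of the 8 within 1 Mb had no read in any null embryo. *Gm13193* and *Gm13192*, also among the 8, lie 995 and 992 kb from *Upf2*. The fall to the next bin therefore depends on where the edge is set. Of the 3 from 1 to 2.5 Mb, *Cdnf* and *Gm13191* passed the filter through 1 group only. *Gm13191* also counts in the set of at least 1 CPM. Without control embryos 2 and 4 the nearest bin was 5 of 16 (31.2%). These 5 include *Gm13199*, which was not among the 8 and passed only through a null embryo. No test of the trend was made. On the side of lower coordinates 10 of 29 members had such a p, on the other side 2 of 12.

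**Figure D4:**
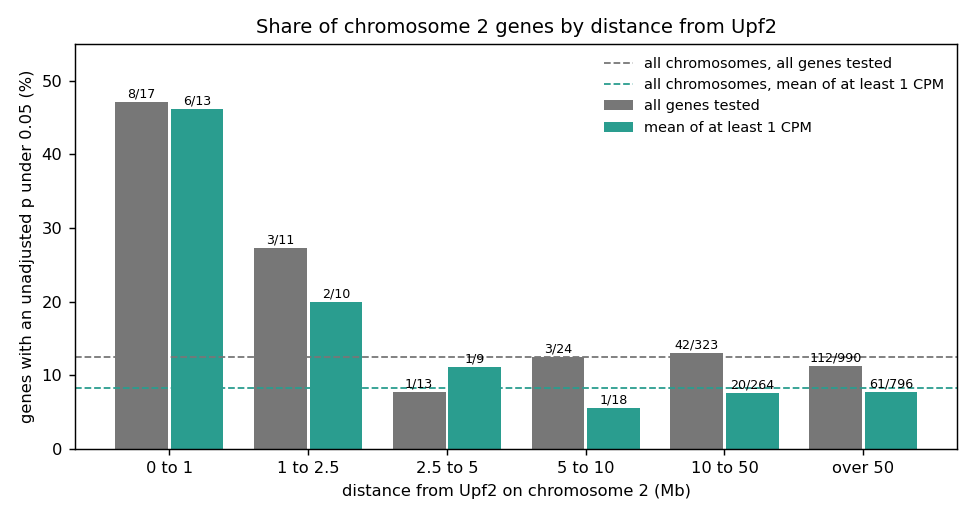
Percentage of chromosome 2 genes with an unadjusted edgeR p under 0.05 (y axis) by distance from *Upf2* in Mb (x axis), for all genes tested (grey) and those averaging at least 1 CPM (green), with the numbers of genes above the bars and the genome-wide shares as dashed lines. The bars fall from 47.1% within 1 Mb to 7.69% at 2.5 to 5 Mb, and *Gm13193* and *Gm13192* lie just inside the 1 Mb edge.

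On the side of lower coordinates, 79.6 and 106 kb from *Upf2*, lie *Nudt5* and *Cdc123*, which are transcribed away from each other and whose annotated starts overlap by 146 bases. *Nudt5* encodes a hydrolase of ADP-ribose and related nucleotides. It had 77.7, 85.5 and 95.1 CPM as lowest, median and highest null embryo, against 22.6, 59.7 and 87.6 CPM in controls, and all 8 null embryos lay above the control median. Its log2 fold change was 0.48 (SE 0.20, edgeR unadjusted p = 0.0257, adjusted p = 0.302), which does not pass the threshold, and 0.40 (adjusted p = 0.4) without control embryos 2 and 4. Null embryos were close together, with a coefficient of variation of 7.61% against 35.3% in controls.

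*Cdc123*, an assembly factor for the translation initiation factor eIF2, had 151, 203 and 232 CPM in null embryos and 122, 159 and 226 CPM in controls, in the same order of lowest, median and highest. Its log2 fold change was 0.23 (SE 0.11, edgeR unadjusted p = 0.0407, adjusted p = 0.363), and 7 of 8 null embryos lay above the control median. Without control embryos 2 and 4 the log2 fold change of *Cdc123* was 0.19 (edgeR unadjusted p = 0.0736). *Sec61a2*, a subunit gene of the translocon in the endoplasmic reticulum, overlaps the far end of *Nudt5* and had a log2 fold change of 0.15 (SE 0.25, adjusted p = 0.92). Without strand, reads of the overlapping ends of these genes cannot be told apart.

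*Dhtkd1*, a mitochondrial dehydrogenase gene of lysine breakdown, lies 8.68 kb from *Upf2* and was the nearest member. Its levels were 3.78, 6.39 and 23.8 CPM in null embryos and 0.884, 19.4 and 126 CPM in controls. Control embryos 2 and 4 held the highest levels, 93.9 and 126 CPM, and 4 of the 11 controls exceeded the highest null embryo. The log2 fold change was -1.87 (SE 0.65, unadjusted p = 0.00909, adjusted p = 0.262), and -0.87 (SE 0.52, unadjusted p = 0.112) without those controls. *Gm13267*, an antisense gene at the end of *Dhtkd1*, had 0 reads in null embryos and 19 in 4 controls, at least 4.67-fold lower per TMM-scaled library size against a floor of 3 counts over the group. Of those reads 12 were in control embryo 2, without which the bound was 1.85-fold and the gene did not pass the filter.

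The pseudogenes *Gm13193* and *Gm13192* lie next to each other, 995 and 992 kb from *Upf2*. *Gm13193* had 12.2, 16 and 21.8 CPM in null and 5.15, 7.08 and 14.2 CPM in control embryos, with all 8 null embryos above the control median and 2 controls above the lowest null embryo. Its log2 fold change was 0.88 (SE 0.28, edgeR adjusted p = 0.255; DESeq2 0.0341), so DESeq2 called it and edgeR did not. *Gm13192*, the *Rps28* copy, had 19.1, 22.6 and 31.6 CPM against 9.51, 16.3 and 24.6 CPM, a log2 fold change of 0.48 (SE 0.21, edgeR unadjusted p = 0.0358, adjusted p = 0.34). Without control embryos 2 and 4 the log2 fold change of *Gm13192* was 0.43 (edgeR unadjusted p = 0.0669). *Rps28*, which shares nearly all of its sequence, had a log2 fold change of 0.01 (SE 0.12, adjusted p = 0.992). The third retrocopy with a known parent, *Gm13181*, had 1.49 CPM as its null and 1.72 CPM as its control median (log2 fold change -0.16, adjusted p = 0.961).

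**Figure D5:**
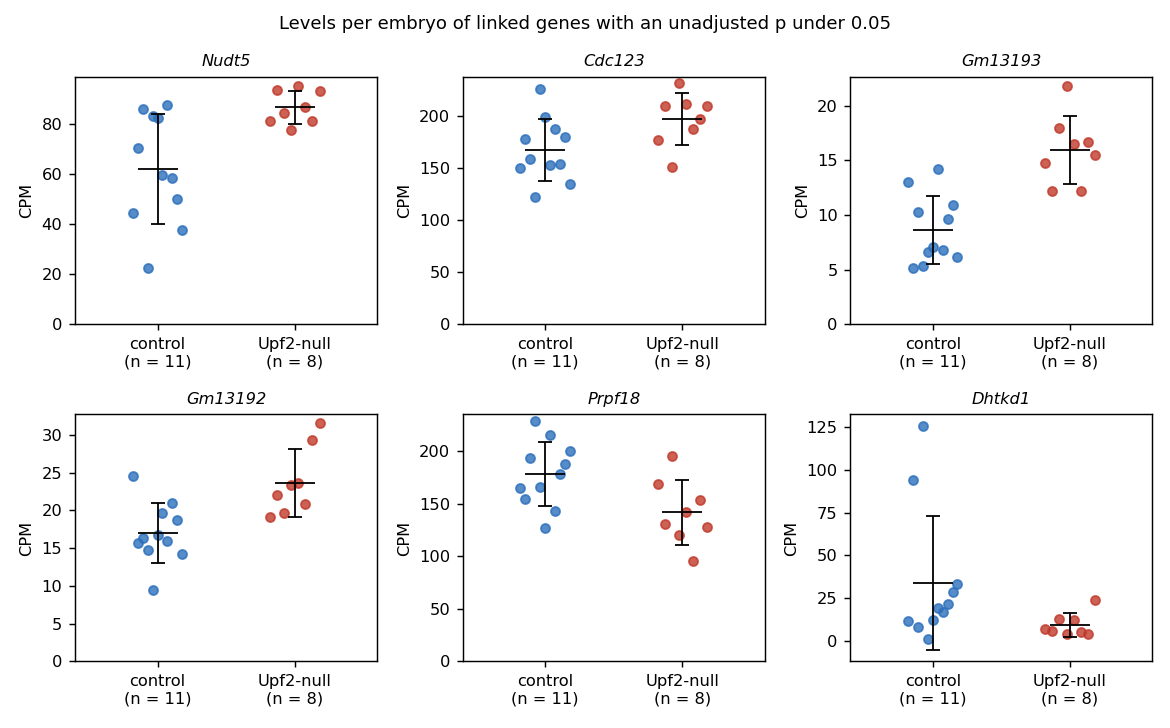
CPM per embryo (points), mean and SD (bars) in 11 control and 8 *Upf2*-null embryos for 6 linked genes with an unadjusted p under 0.05 and an adjusted p over 0.1. The 8 null embryos lie above the control median for *Nudt5*, *Gm13193* and *Gm13192*, all with overlap, and control embryos 2 and 4 give the 2 highest points of *Dhtkd1*. Without control embryos 2 and 4 the unadjusted p of *Cdc123*, *Gm13192* and *Dhtkd1* was over 0.05.

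The 4 further members with an unadjusted p under 0.05 rest on reads from few embryos or on a small change. *Prpf18*, a splicing factor gene, had 95.7, 136 and 195 CPM in null and 127, 178 and 228 CPM in control embryos, and 7 of 8 null embryos lay below the control median (log2 fold change -0.33, SE 0.13, adjusted p = 0.275). *Cdnf*, a neurotrophic factor gene of the endoplasmic reticulum, had 75 reads in 4 null embryos and 8 in 2 controls, and its other embryos had none (log2 fold change 3.65, SE 1.33, adjusted p = 0.262). Of the control reads of *Cdnf*, 7 were in control embryo 1, without which the log2 fold change was 5.52 (adjusted p = 0.148) against 1 control read. The long noncoding *Gm13191* had 1 read in null embryos and 119 in controls, 62 and 51 of them in control embryos 2 and 4; the ratio per TMM-scaled library size was 0.0114 (95% interval 0.000286 to 0.0647, counting error only), and without those controls the gene did not pass the filter. *Ucma*, a cartilage matrix gene, had 0 reads in null embryos and 22 in 4 controls, at least 5.41-fold lower. Of those reads 12 were in control embryo 9, without which the bound was 2.71-fold and *Ucma* did not pass the filter. No null embryo reached 10 counts in *Gm13191* or *Ucma*, and no control did in *Cdnf*, so the filter let each in through 1 group.

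The abundant coding neighbours differed little. The 9 members averaging at least 100 CPM had log2 fold changes of at most 0.33 in size. Among them *Prpf18* (-0.33, SE 0.13) and *Cdc123* (0.23, SE 0.11), given above, had an unadjusted p under 0.05 by edgeR. Of all genes averaging at least 1 CPM, 8.32% had such a p. Per kilobase of exon the most abundant member was *Rpp38*, a subunit gene of RNase P, at 126 CPM per kb. *Gm45902*, an Ensembl gene that shares its place and strand with the chaperone gene *Hspa14*, had 334, 359 and 395 CPM in null and 319, 351 and 429 CPM in control embryos, a log2 fold change of 0.01 (SE 0.06, adjusted p = 0.978). For the peroxisomal enzyme gene *Phyh* it was 0.13 (SE 0.12), for the selenophosphate synthetase gene *Sephs1* -0.09 (SE 0.11), for *Rpp38* 0.07 (SE 0.13) and for the N-myristoyltransferase gene *Nmt2* 0.04 (SE 0.12), with adjusted p from 0.785 to 0.963. None of these values shows that the genotypes are equal, since each standard error leaves room for a change of its own size.

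By role, no list of linked genes held a call. Of the DNA replication and repair genes, *Mcm10*, which acts in starting DNA replication, had 0.18 (SE 0.20), *Kin* 0.03 (SE 0.15) and *Dclre1c*, the end-joining nuclease Artemis, -0.79 (SE 0.40, unadjusted p = 0.0611) on the log2 fold change scale. Of 4 chromatin and transcription genes, *Suv39h2*, a histone H3 lysine methyltransferase gene, had 0.11 (SE 0.27), *Sfmbt2* and *Taf3* are given above, and *Bend7* had -0.78 (SE 0.45, unadjusted p = 0.0951). Over all genes tested, 12.5% had an unadjusted p under 0.05, 5.15% higher and 7.38% lower. Of 3 RNA processing and binding genes, 1 (*Prpf18*, lower) had such a p. Of 6 translation, folding and secretion genes, 2 did (*Cdc123* and *Cdnf*, both higher, the latter past the filter only through null embryos), and of 6 metabolic genes, 2 did (*Nudt5* higher, *Dhtkd1* lower). Of 11 signalling, trafficking and cytoskeletal genes 8 passed the filter and 0 had such a p, with log2 fold changes such as 0.09 (SE 0.33) for the autophagy receptor gene *Optn* and -0.05 (SE 0.45) for *Usp6nl*, a gene for a GTPase-activating protein of Rab proteins.

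Of 12 known NMD targets, taken for comparison, 11 passed the filter. Of these, 1 was called higher (*Ddit3*, a stress transcription factor gene, log2 fold change 1.34, SE 0.23, edgeR adjusted p = 0.0251) and 0 lower, beside 0.175% higher and 0.0175% lower over all genes tested. Log2 fold changes were above 0 in 10 of the 11 and in 8172 of the 17137 genes tested. The median was 0.59 for the known targets, -0.02 for all genes tested and 0.04 for linked genes. This list of targets was chosen with earlier results of these data known. The paper found *Atf4*, *Ddit3* and *Gadd45a* higher in these same embryos, so the list is not an independent reference for loss of decay. Features that can make a transcript a target of decay were then read from the annotation of the linked genes. Of the 32 coding members, 4 have a transcript whose stop codon lies at least 50 bases before its last junction (*Suv39h2*, *Fam107b*, *Celf2* and *Dhtkd1*), or 12.5% against 27.3% of 14283 coding genes tested. None of the 4 was called; their median log2 fold change was 0.06, beside 0.04 for the 28 coding members without such a transcript. The 3 members with a transcript annotated as a target of decay (*Suv39h2*, *Fam107b* and *Celf2*) had log2 fold changes of 0.11, 0.01 and 0.15. The called members *Gm13384* and *Gm13261* have no annotated stop codon, so the feature cannot be scored for them.

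Both called members are noncoding. The 32 coding members held 0 calls and 6 with an unadjusted p under 0.05 (18.8%, against 11.9% of coding genes tested), and the 9 members of other biotypes held both calls and 6 such p (66.7%, against 15.2% of 2705 such genes). Those 6 were *Gm13384*, *Gm13261*, *Gm13193* and *Gm13192*, with log2 fold changes above 0, and *Gm13191* and *Gm13267*, with values below 0 and at most 1 read over all null embryos. *Gm13191* and *Gm13267* passed the filter through controls only, so their part of the 66.7% is partly built in. Without control embryos 2 and 4 neither passed it, and *Gm13192* had an unadjusted p of 0.0669 by edgeR. The remaining 3 were *Gm13181*, *Gm13262* (1 read in null and 20 in control embryos, 19 of them in 1 embryo) and *Mir669i*, the last 2 also past the filter through 1 group only.

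The remaining members had few reads or wide spreads. *Echdc3*, an enoyl-CoA hydratase family gene 132 kb from *Upf2*, had 4.14, 18.7 and 46.1 CPM in null and 1.99, 26.8 and 50.4 CPM in control embryos (log2 fold change -0.45, SE 0.42, adjusted p = 0.803). *Celf2*, an RNA-binding splicing regulator gene, had 6.91, 20.6 and 30.1 CPM against 0.257, 22.3 and 28.1 CPM (log2 fold change 0.15, SE 0.45). The membrane protein gene *Fam171a1* had 0, 5.32 and 24.3 CPM against 0.866, 6.55 and 26.1 CPM. The groups overlapped throughout in all 3. *Acbd7*, *Itih5*, *Meig1*, *Olah*, *Camk1d* and *Gm13199* had a median of 0 to 4.44 CPM in null embryos and unadjusted p from 0.106 to 0.614; *Camk1d* and *Gm13199* reached 10 counts only in null embryos.

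Variation between embryos was measured within each genotype. For the 26 members averaging at least 10 CPM the median coefficient of variation was 32.9% in controls and 31.4% in null embryos, beside 30.8% and 32.1% for the 9248 genes of that abundance. The authors' assembled models hold 266 unannotated transcripts wholly in the window, 190 of them with more than 1 exon, and 25 of the 41 members have at least 1. They are most numerous at *Cdc123* (15), *Sec61a2* (14), *Nudt5* (10) and *Gm13261* (10). The models are pooled over embryos and carry no level per genotype.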

How the data were processed

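RNA of 19 single blastocysts was amplified with the SMARTer v4 kit and sequenced from Nextera XT libraries as read pairs. Per the labels and the study's methods, the authors aligned reads with STAR 2.5.2a, removed duplicates with SAMtools and deposited raw counts per Ensembl GRCm38 gene from featureCounts; spike-in reads were not used here. A second deposited table, a signal named TPM, holds the authors' counts scaled by 1 factor per embryo: whole reads were recovered from 100% of its values (tolerance 1e-04 reads) over 16878 genes, and edgeR on those reads called 33 of the 16127 that passed the count minimum. The deposited merged transcript models were used for positions only, and the sources do not give the strand setting of the gene counts.

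Names, biotypes and positions came from GENCODE M21 (40340 of 41388 count rows matched), promoters from RefSeq (GRCm38.p6). The 17137 genes that reach 10 counts in some embryo entered 1 fit in edgeR 4.0.16 (TMM, quasi-likelihood, robust), with no covariate and a threshold of adjusted p under 0.1; DESeq2 1.42.0 and limma 3.58.1 (voom) were alternatives, and the fit was tested on simulated data. Copies were aligned with BLAST 2.17.0. Floors use 3 counts over a group and intervals are exact binomial at 95%; PCR duplicates without molecular identifiers mean both cover counting error only. Nothing says that embryos of a group came from separate litters, so p-values measure the spread between these embryos.

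Members and lists were chosen with earlier results of these data known. Named by rule, 33 in all, were the called members, those with an unadjusted p under 0.05, the 10 with the highest mean CPM, the 4 nearest coding members on each side of *Upf2* and role-list members averaging at least 5 CPM; others are named to account for every member. Embryos were not treated as pairs. Haplotypes around *Upf2* were not typed. Other settings left out each embryo, changed the scaling, the filter, the threshold and the window; counts of members without control embryo 5 or *Upf2*-null embryo 2, and those of members with an unadjusted p under 0.05 without control embryos 2 and 4, were added after seeing the data.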

Additional observations from a re-analysis of the deposited data

Results flagged for a closer look

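In 7 of 31 sets of 8 null embryos, each for 1 named gene, the highest embryo lay farther from its nearest neighbour, relative to the range, than Dixon's 95% critical value. Chance alone flags about 1 in 20 such sets if values are normally distributed, which CPM of genes with few reads need not be. *Upf2*-null embryo 7 held the highest level of *Fam171a1*, 24.3 CPM with the next at 9.05 CPM, and of *Nmt2*, 253 CPM with the next at 192 CPM. *Upf2*-null embryo 2 held the highest level of *Fam107b*, 228 CPM with the next at 141 CPM, and of *Echdc3*, 46.1 CPM with the next at 22.6 CPM. *Dhtkd1* reached 23.8 CPM in *Upf2*-null embryo 8, with the next at 12.5 CPM. *Gm13199* reached 1.97 CPM in *Upf2*-null embryo 5, with the next at 0.653 CPM. *Gm13191* had 0.193 CPM, from 1 read, in *Upf2*-null embryo 1 and 0 in the other 7, so its gap equals its range whatever the level. None of these is a called gene.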

How the results depend on the processing

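The number of linked genes called higher, 2 by edgeR, was 3 by DESeq2 and 2 by limma voom, with RLE or total-count scaling, with both other filters, with the scaled table, with the reads recovered from it (a setting chosen after seeing the data) and in a window of 10 Mb. It was 1 at an adjusted p of 0.05, 1 in a window of 2.5 Mb, which excludes *Gm13261* by position, 1 without control embryos 2 and 4 and 1 to 2 when each embryo was left out; *Gm13384* was called in each of these. With the replicate number as a block it was 0: the log2 fold changes were 4.34 for *Gm13384* (edgeR adjusted p = 0.551) and 1.17 for *Gm13261* (adjusted p = 0.774). The embryos share only a number (correlations of -0.137 to 0.0687), so no pairing is drawn from this. No alternative called a member lower, and the median log2 fold change stayed within 0.12, the spread over null embryos, of 0.04, at 0.01 to 0.09 when each embryo was left out.

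Of 941 gene values over 29 alternatives, 876 kept direction and side of the threshold, 16 were no longer past it, 1 came past it (*Gm13193*, DESeq2) and 48, over 9 genes, changed sign; none of those genes was called in any alternative. *Fam171a1* had 0.0039 (DESeq2), 0.05 (voom), 0.0042 (RLE), 0.06 (total counts), 0.01 (filterByExpr), 0.0029 (at least 1 count) and 0.03 (without control embryos 2 and 4), where edgeR gave -0.00; *Fam107b* -0.18 (voom), -0.02 (block), -0.13 (without control embryos 2 and 4) and -0.01 (scaled table); *Optn* -0.04 (voom) and -0.06, and *Celf2* -0.02 (both without control embryos 2 and 4); *Nmt2* -0.01 (block). When each embryo was left out the ranges were -0.65 to 0.47 for *Fam171a1*, -0.06 to 0.09 for *Nmt2*, -0.01 to 0.19 for *Suv39h2*, -0.01 to 0.04 for *Gm45902*, -0.16 to 0.08 for *Fam107b*, -0.08 to 0.22 for *Optn*, -0.19 to 0.13 for *Usp6nl* and -0.01 to 0.08 for *Kin*. The cause was not tested. Depth limits members under 1 CPM, where 1 embryo can hold most reads.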
